A study of Mus musculus with 30 samples.

Results

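Dorsal root ganglia (DRG) of female mice given prolactin were compared with those of female mice given vehicle, across all genes. The 6 libraries were those whose titles mark them as female DRG, with the treatment PRL (prolactin, 3 libraries) or Veh (vehicle, 3 libraries). They are 6 of the 30 libraries of the series, and the libraries marked PRL_Sh, made with another kit, were left out. Both groups were C57BL/6J mice aged 10 to 12 weeks. The PRL group received 1 µg of prolactin by injection into the hind paw, and the Veh group received the vehicle. Both a single injection and injections repeated daily for 12 days appear in the protocol, and which one these mice had is not stated. Total RNA was depleted of ribosomal RNA and sequenced as single reads of 50 nt. The labels do not state that replicates were separate animals or whether ganglia were pooled, so p-values measure the spread between these libraries, which may be technical. The 6 male DRG libraries of the same design (3 PRL, 3 Veh) were fitted together with the female ones and serve as the closest comparison.

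DRG contain the somata of sensory neurons that report touch, heat and pain, wrapped by satellite glia and joined to axons that are myelinated by Schwann cells. Prolactin is a pituitary hormone. Its receptor, Prlr, activates the kinase Jak2 and the transcription factors Stat5a and Stat5b, which induce feedback inhibitors such as Cish and the Socs genes. Prolactin is known to sensitise nociceptors in rodents, more so in females. Glucocorticoids act through a nuclear receptor that binds DNA as a dimer at a palindromic element and switches on a set of genes shared by many tissues.

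The female libraries held between 9.35 M and 12.2 M reads in 22609 genes, and 36.6% to 38.0% of the reads in each file were listed as multimapped. All 6 carried Xist RNA at 1610 CPM (counts per 1 M gene reads) or more and no read of Uty or Eif2s3y, both Y-linked. Ddx3y and Kdm5d, also Y-linked, were at 0.164 CPM or less in each. The tissue label held up against its markers. Summed over 7 sensory neuron markers (Scn10a, Scn9a, Calca, Tubb3, Prph, Isl1 and Nefh), the level was 5067 to 5984 CPM in PRL libraries and 5178 to 6144 CPM in Veh libraries. Some libraries stood apart. In PRL replicate 1 the 20 genes of a skeletal muscle list took 2.86% of gene reads, in PRL replicate 2 they took 0.492% and in PRL replicate 3 0.0618%, against 0.0302%, 0.0865% and 0.157% in the Veh libraries. In Veh replicate 1 the 22 genes of an interferon list took 0.185% of gene reads, against 0.0328% to 0.0456% in the other 5 libraries, and 3 adipocyte markers (Adipoq, Plin1 and Cfd) summed to 172.4 CPM, against 21.4 to 71.2 CPM in the others. PRL replicates 1 and 2 had 316.2 and 364.4 CPM of 3 neutrophil markers (S100a8, S100a9 and Ngp), against 127.8 CPM in PRL replicate 3 and 120.4 to 147.3 CPM in Veh libraries. All 20 muscle genes were higher on average with PRL (median log2 change 3.52) and all 22 interferon genes lower (median -1.26), and none of them passed the test. An unadjusted p under 0.05 was found for 20 muscle genes (2 called by DESeq2) and 11 interferon genes (0 called by DESeq2). The same held for 1766 of all 14705 tested genes.

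**Figure D1:**
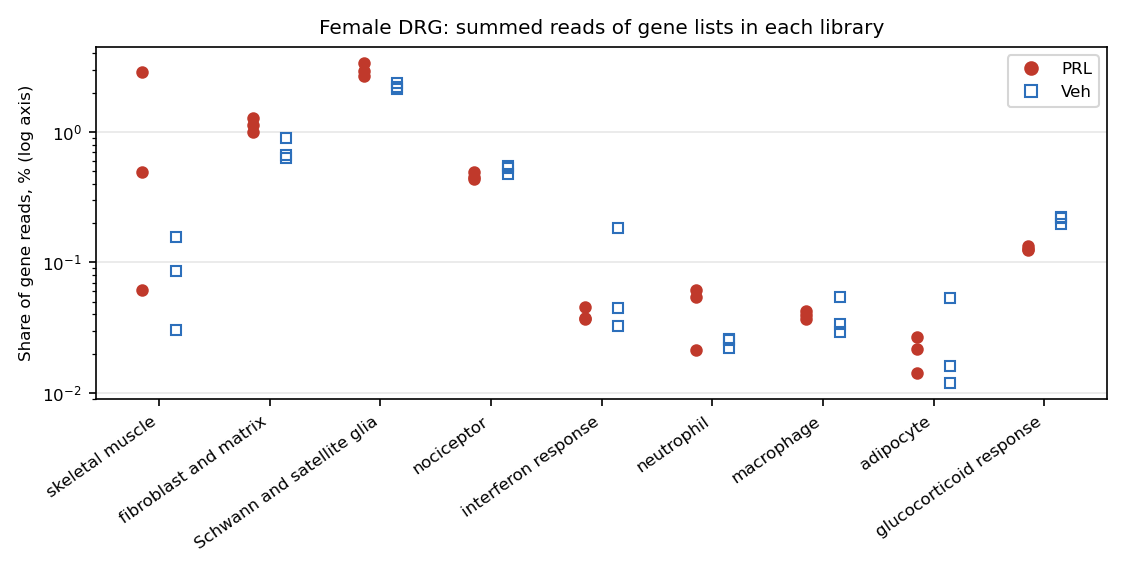
Share of gene reads taken by the summed members of 9 gene lists in each female DRG library, on a log axis; filled circles are PRL libraries and open squares are Veh libraries. One PRL library stands at 2.86% for skeletal muscle and one Veh library at 0.185% for interferon response, while the glucocorticoid list runs from 0.124% to 0.135% with PRL and from 0.196% to 0.224% with Veh.

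Of 14705 genes tested, 96 (0.653%) passed an adjusted p of 0.05 in edgeR's quasi-likelihood test with Benjamini-Hochberg adjustment, 43 of them higher with PRL (0.292%) and 53 lower (0.36%). None of the 96 had overlapping PRL and Veh libraries. Over all tested genes the groups did not overlap for 2282 (15.5%). Leaving aside predicted genes and those averaging under 1 on the log2 CPM scale, the largest falls were in Hif3a, the metallothionein gene Mt2 and the transcription factor gene Zbtb16, with log2 changes of -2.17, -2.14 and -2.02, and the largest rises were in Tmem181b-ps, Wdfy1, Aplnr (the apelin receptor), Gabra2 and Nnt. Many changes were small, with 30 of the 96 at 0.5 or less on the log2 scale. In bulk tissue, fewer cells of a type and less RNA per cell cannot be told apart, and this holds for every change below. Levels are CPM normalised by TMM unless stated, and each adjusted p is from that test.

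**Figure D2:**
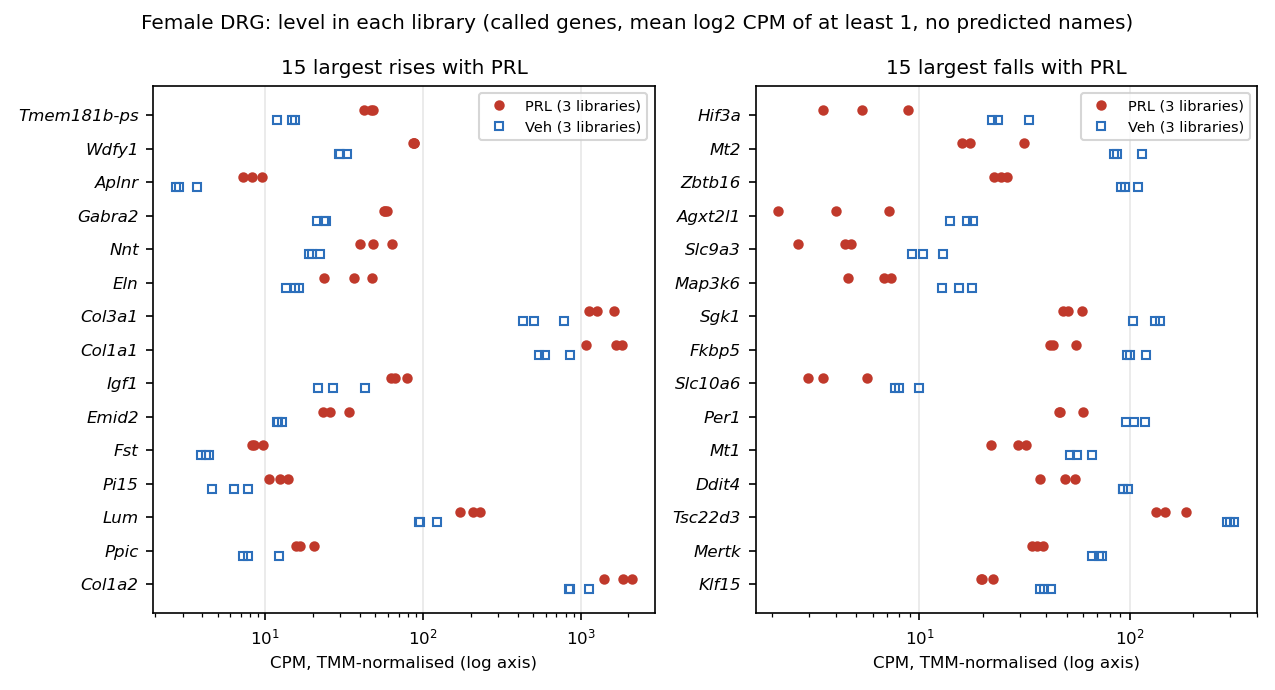
Normalised CPM (log axis) of the 15 largest rises (left) and 15 largest falls (right) past the test, leaving aside predicted genes and those averaging under 1 on the log2 CPM scale, in each female DRG library, filled circles for PRL and open squares for Veh. Every gene drawn has its 3 PRL libraries on one side of its 3 Veh libraries, the rises from Tmem181b-ps (log2 1.70) to Col1a2 (0.93) and the falls from Hif3a (-2.17) to Klf15 (-0.94).

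Genes known to be induced by glucocorticoids made up a large part of the falls. Of 25 such genes listed, all tested, 16 fell and none rose, with a median log2 change of -0.88, against -0.0028 over all tested genes. Of all tested genes, 0.36% fell and 0.292% rose. Earlier results of these data were known when this list was chosen. The groups did not overlap for 20 members that were lower with PRL, against 7.72% of all tested genes. Zbtb16 fell to 24.4, 22.6 and 26.0 CPM in PRL libraries, against 90.3, 109.4 and 94.9 CPM in Veh libraries (log2 change -2.02 ± 0.18 SE, adjusted p = 0.000238). The PRL libraries lay close together and far below the lowest Veh library. Tsc22d3 (also called GILZ), an anti-inflammatory mediator, had 132.5, 146.3 and 183.8 CPM in PRL libraries, against 299.2, 312.8 and 290.1 CPM in Veh libraries (log2 change -0.96 ± 0.13 SE, adjusted p = 0.0050). Its highest PRL library was well under its lowest Veh library.

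Fkbp5, a co-chaperone that restrains the glucocorticoid receptor, stood at 41.5, 43.3 and 55.7 CPM with PRL, against 97.1, 119.8 and 99.6 CPM with Veh (log2 change -1.17 ± 0.17 SE, adjusted p = 0.0076). Sgk1, a kinase that regulates ion transport, was at 50.5, 48.3 and 59.4 CPM in PRL libraries and at 139.2, 131.7 and 103.9 CPM in Veh libraries (log2 change -1.25 ± 0.19 SE, adjusted p = 0.0079). Both genes were roughly level within the PRL group, with PRL replicate 3 the highest. The metallothioneins, which bind zinc and copper, fell together. Mt2 was at 15.9, 17.5 and 31.4 CPM with PRL, against 86.4, 113.5 and 83.8 CPM with Veh (log2 change -2.14 ± 0.31 SE, adjusted p = 0.0077). Mt1, next to Mt2 on chromosome 8 among the tested genes, was at 21.8, 32.0 and 29.6 CPM with PRL, against 51.8, 66.2 and 55.7 CPM with Veh (log2 change -1.06 ± 0.18 SE, adjusted p = 0.018). Hif3a, of the hypoxia-inducible factors, had 3.50, 5.35 and 8.79 CPM in PRL libraries, against 22.1, 33.2 and 23.7 CPM in Veh libraries (log2 change -2.17 ± 0.30 SE, adjusted p = 0.0066).

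Further members fell. Ddit4, an inhibitor of mTORC1, stood at 37.2, 48.9 and 54.9 CPM in PRL libraries, against 92.8, 97.8 and 92.8 CPM in Veh libraries. Per1, a clock gene that glucocorticoids also induce, averaged 51.0 ± 7.89 CPM with PRL, against 106.1 ± 10.8 CPM with Veh (SD, n = 3 each). The transcription factor gene Klf15 was at 20.6 ± 1.52 CPM with PRL, against 39.6 ± 2.46 CPM with Veh, and the arrestin-domain gene Arrdc2 was at 10.5 ± 0.211 CPM with PRL, against 19.2 ± 0.958 CPM with Veh. Map3k6, a stress kinase gene, was at 6.21 ± 1.46 CPM with PRL, against 15.3 ± 2.47 CPM with Veh. The other members that fell were Klf9, Errfi1, Nfkbia and Txnip, by 0.50 to 0.79 on the log2 scale. Not every member moved. Cdkn1a (log2 -0.02) and Dusp1 (log2 -0.05) overlapped between the groups, and Gpd1 was at 55.0 to 74.2 CPM with PRL, against 42.1 to 48.2 CPM with Veh without passing the test (adjusted p = 0.136). The count of 16 depended on single libraries. Leaving out PRL replicates 1, 2 and 3 in turn gave 11, 4 and 16, leaving out Veh replicates 1, 2 and 3 gave 15, 4 and 14, and the count was 11 with a muscle covariate. DESeq2 called 17 members lower and 1 higher. Zbtb16, Tsc22d3 and Arrdc2 were called in all 13 alternatives.

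**Figure D3:**
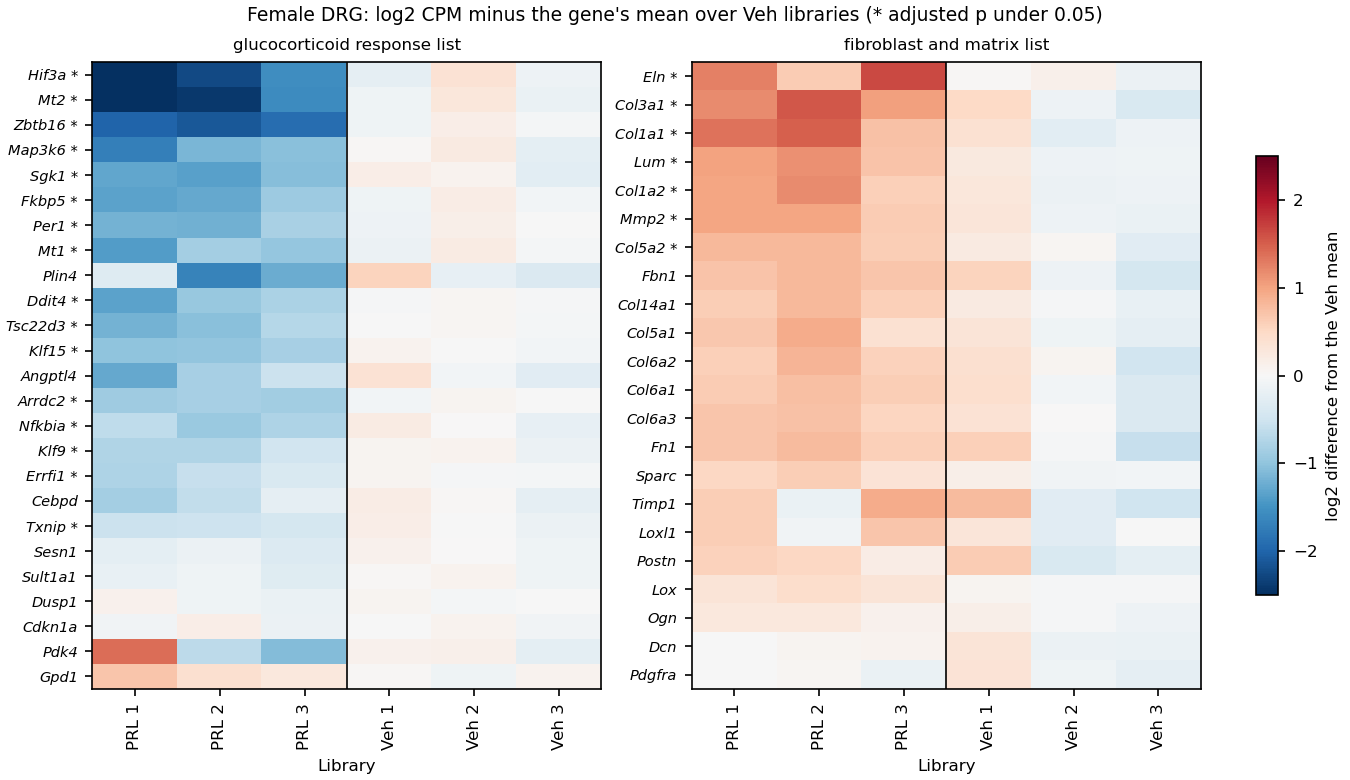
Heat maps of the glucocorticoid response list (left) and the fibroblast and matrix list (right) in the 3 PRL and 3 Veh female libraries; colour is log2 CPM (0.1 added) minus the gene's mean over Veh libraries, and an asterisk marks an adjusted p under 0.05. In the left panel 16 of 25 genes carry an asterisk, all lower with PRL, and Pdk4 is high in PRL replicate 1 alone (133.9 CPM, against 23.6 and 32.1 CPM in the other PRL libraries and 42.5 to 55.4 CPM in Veh libraries). In the right panel 7 of 22 carry one, all higher with PRL.

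Promoters of these genes were searched for the palindromic glucocorticoid response element, written GNACANNNTGTNC, which reads the same on both strands. In RefSeq windows of 250 bases before to 50 bases after each gene's start (GRCm38.p6), 145 of 27025 genes (0.54%) held the motif, and 51 of 11506 tested genes (0.44%). Among the 16 list genes that fell, 15 had a window and 4 of those held it (26.7%): Sgk1, Mt1, Map3k6 and Txnip. In the whole list 21 genes had a window, and the same 4 held it (19.05%). Of all genes that fell with PRL, 5 of 42 with a window held it (11.9%), the fifth being Slc10a6, a sulphated steroid transporter gene outside the list, and of all that rose, 0 of 23. A match describes the letters in these windows and does not show that the receptor binds there. The list was chosen with results of these data known and holds genes known to be induced by glucocorticoids. A high share of motifs in it therefore does not test why these genes fell. The windows printed are those of Sgk1, Mt1 and Map3k6, the 3 holders with the largest falls within the list, with the motif in capitals. The start of transcription is the base after the first 250.
Sgk1, chr10:21993640-21993939, plus strand: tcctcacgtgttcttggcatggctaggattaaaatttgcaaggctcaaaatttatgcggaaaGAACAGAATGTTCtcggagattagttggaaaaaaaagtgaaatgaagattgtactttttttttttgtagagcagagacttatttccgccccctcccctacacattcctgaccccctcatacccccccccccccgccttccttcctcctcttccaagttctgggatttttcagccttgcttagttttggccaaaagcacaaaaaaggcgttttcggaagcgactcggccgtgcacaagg
Mt1, chr8:94178839-94179138, plus strand: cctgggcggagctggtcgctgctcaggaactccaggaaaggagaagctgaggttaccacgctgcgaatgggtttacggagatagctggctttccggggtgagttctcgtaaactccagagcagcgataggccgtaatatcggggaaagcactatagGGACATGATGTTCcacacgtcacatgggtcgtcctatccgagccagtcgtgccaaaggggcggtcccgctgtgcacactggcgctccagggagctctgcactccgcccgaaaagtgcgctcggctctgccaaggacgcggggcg
Map3k6, chr4:133240568-133240867, plus strand: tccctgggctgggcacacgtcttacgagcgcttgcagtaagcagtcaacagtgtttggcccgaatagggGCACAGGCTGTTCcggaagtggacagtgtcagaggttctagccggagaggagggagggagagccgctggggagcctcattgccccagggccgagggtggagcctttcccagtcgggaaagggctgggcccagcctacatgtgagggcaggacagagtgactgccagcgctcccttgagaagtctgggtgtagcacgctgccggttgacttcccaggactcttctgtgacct
The motif began 188 bases before the start in Sgk1, 94 bases before it in Mt1 and 181 bases before it in Map3k6. In Sgk1 the match was to the full consensus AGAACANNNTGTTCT, which 3 of 27025 genes held in this window.

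In the pathway of prolactin itself, most listed genes did not pass the test at the RNA level. In a list of 18 genes of prolactin and JAK-STAT5 signalling, 1 rose, 2 fell and 14 did not pass, with a median log2 change of 0.16. Of all tested genes, 0.292% rose and 0.36% fell, with a median of -0.0028. The groups did not overlap for 2 members that were higher and 4 that were lower with PRL, against 7.8% and 7.72% of all tested genes. Prl, the hormone, had no read in any of the 6 libraries and was not tested. Prlr had 12.8, 13.8 and 16.7 CPM in PRL libraries and 11.4, 13.1 and 14.2 CPM in Veh libraries, which overlapped (log2 change 0.17 ± 0.15 SE, adjusted p = 0.677). Among the kinase and its effectors, Jak2 was at 65.2 ± 5.98 CPM with PRL, against 62.1 ± 6.01 CPM with Veh, and Stat5a (log2 0.18) and Stat5b (log2 0.02) overlapped between the groups. Stat3, a related factor, was at 295.4 to 328.3 CPM with PRL, against 338.5 to 361.2 CPM with Veh without passing (adjusted p = 0.264). Ghr, the growth hormone receptor, and Tnfrsf11a, the receptor of the cytokine RANKL, had log2 changes of 0.04 and -0.16.

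The STAT5-induced inhibitors did not pass the test. Cish had 6.46, 8.20 and 9.85 CPM with PRL and 7.72, 5.76 and 6.14 CPM with Veh (log2 0.32, adjusted p = 0.53), and Socs2 and Socs3 had log2 changes of 0.21 and 0.27. Socs1 was at 0.953 to 1.43 CPM with PRL and at 3.24, 0.893 and 0.975 CPM with Veh, highest in Veh replicate 1, the library with the high interferon list. The other members without a call were Pim1 (log2 0.16), Ccnd1 (0.28) and Ptpn6 (0.24). Igf1, a growth factor induced through STAT5 in liver, rose to 62.7, 67.0 and 79.0 CPM in PRL libraries, against 42.6, 26.8 and 21.6 CPM in Veh libraries (log2 change 1.20 ± 0.21 SE, adjusted p = 0.019). All 3 PRL libraries were above Veh replicate 1, the highest of the Veh group. Bcl2l1, which encodes the survival protein Bcl-xL, fell to 61.8, 66.1 and 62.3 CPM with PRL, against 90.5, 100.7 and 88.1 CPM with Veh (log2 change -0.56 ± 0.09 SE, adjusted p = 0.0090). Bcl6, a repressor that competes with STAT5 at shared sites, fell to 42.5 to 49.4 CPM with PRL, against 59.7 to 66.6 CPM with Veh (log2 change -0.48 ± 0.09 SE, adjusted p = 0.039). Each of the 3 calls was lost when single libraries were left out, with a highest adjusted p over the alternatives of 0.146 for Igf1 (without Veh replicate 2), 0.0678 for Bcl2l1 (without Veh replicate 2) and 0.182 for Bcl6 (without PRL replicate 2).

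Collagens and other matrix genes of fibroblasts formed the main group of rises. Of 22 fibroblast and matrix genes, 7 rose and none fell, with a median log2 change of 0.63, and the groups did not overlap for 16. Over all tested genes, 0.292% rose, and 7.8% were higher with PRL without overlap. Col1a1 had 1675, 1818 and 1072 CPM in PRL libraries, against 849.5, 541.2 and 595.9 CPM in Veh libraries (log2 change 1.20 ± 0.20 SE, adjusted p = 0.014). Col3a1 had 1259, 1631 and 1122 CPM with PRL, against 781.7, 506.9 and 427.1 CPM with Veh (log2 change 1.23 ± 0.22 SE, adjusted p = 0.026). For both fibrillar collagens, Veh replicate 1 was the highest of the Veh group and PRL replicate 3 the lowest of the PRL group. Col1a2 rose by 0.93, and Col5a2, next to Col3a1 on chromosome 1 among the tested genes, by 0.73 on the log2 scale. Lum, a proteoglycan of collagen fibrils, averaged 202.7 ± 29.9 CPM with PRL, against 104.5 ± 15.9 CPM with Veh, and Mmp2, a matrix protease, 104.2 ± 13.9 CPM with PRL, against 57.3 ± 10.7 CPM with Veh. Eln, which encodes elastin, averaged 35.9 ± 12.1 CPM with PRL, against 15.2 ± 1.49 CPM with Veh. The fibroblast markers Dcn (log2 0.03) and Pdgfra (log2 -0.06) overlapped between the groups.

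The matrix calls were not stable to single libraries. In place of 7, leaving out PRL replicates 1, 2 and 3 in turn gave 1, 1 and 8, and leaving out Veh replicates 1, 2 and 3 gave 12, 0 and 0. It was 0 with a muscle covariate. The log2 change of Col1a1 ran from 1.05 to 1.42 over the alternatives. The muscle list took more of the gene reads in PRL replicates 1 and 2 (2.86% and 0.492%) than in the other female libraries. Among the male libraries in the fit it reached 1.316% in PRL replicate 3 and 0.7565% in Veh replicate 1. Beyond the fit with the muscle covariate, its part in these changes was not tested. Other genes outside the list that rose include the collagen genes Emid2 (Col26a1; 27.6 ± 5.55 CPM with PRL, against 12.2 ± 0.462 CPM with Veh), Col11a1 and Col28a1, the basement membrane gene Nid2 and the fibrillin gene Fbn2. Col24a1, a further collagen, fell to 55.3, 57.9 and 58.5 CPM with PRL, against 80.8, 80.4 and 86.2 CPM with Veh (log2 change -0.53 ± 0.06 SE, adjusted p = 0.000842). In the vascular list 1 of 13 genes rose, Aplnr, which averaged 8.31 ± 1.17 CPM with PRL, against 3.10 ± 0.542 CPM with Veh, a call lost in 6 of 13 alternatives (adjusted p up to 0.219).

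Among Schwann cell and satellite glia genes, 2 of 20 rose and none fell, against 0.292% and 0.36% of all tested genes. Pmp22, a membrane protein of peripheral myelin, had 5531, 6087 and 4732 CPM with PRL, against 3789, 3404 and 3479 CPM with Veh (log2 change 0.62 ± 0.12 SE, adjusted p = 0.039). Its PRL libraries ran in the same order as for Col1a1, with replicate 2 the highest and replicate 3 the lowest. Other myelin genes were nearer to level, with Mbp at a log2 change of 0.29 and Cnp at -0.05. The groups did not overlap for 7 members that were higher and 2 that were lower with PRL, against 7.8% and 7.72% of all tested genes. The count of 2 members that were lower without overlap is close to that share, and the count of 7 that were higher is above it. Among the lower was Egr2, a transcription factor of myelinating Schwann cells, which did not pass (65.2, 56.3 and 58.5 CPM with PRL, against 103.6, 103.4 and 91.8 CPM with Veh, log2 -0.73, adjusted p = 0.123). Without PRL replicate 3, and in a fit of only the groups compared, 1 member of the list was called lower in each. The lowest member was Gfap (log2 -0.76, with 1.07 to 9.44 CPM in Veh libraries). Ugt8a, which makes the myelin lipid galactocerebroside and is outside the list, rose to 738.9 ± 120.2 CPM with PRL, against 440.2 ± 40.8 CPM with Veh. Pmp22 lost its call in 7 of 13 alternatives (adjusted p up to 0.216). These were without PRL replicate 1 or 2, and without Veh replicate 2 or 3. The others were the replicate number as a block, a muscle covariate and a fit of only the groups compared.

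Cholesterol synthesis, which myelinating cells use heavily, showed small rises. Of 22 tested genes 3 rose and none fell, 19 were above 0 and the median log2 change was 0.18. Of all 14705 tested genes, 0.292% rose, 0.36% fell and 7247 were above 0, with a median of -0.0028. Cyp51, which removes a methyl group from lanosterol, had 219.8, 226.1 and 191.7 CPM in PRL libraries, against 161.2, 156.6 and 166.9 CPM in Veh libraries (log2 change 0.40 ± 0.07 SE, adjusted p = 0.027). Sc4mol (Msmo1), which acts on a later methyl group, had 246.2, 246.2 and 217.6 CPM with PRL, against 191.6, 182.7 and 194.6 CPM with Veh (log2 change 0.32 ± 0.06 SE, adjusted p = 0.026). For both genes PRL replicate 3 was the lowest of its group and still above every Veh library. The list ran down to Srebf2 and Acat2, both at -0.07. Leaving out PRL replicates 1, 2 and 3 in turn gave 1, 1 and 7 rises, against 3, 0 and 1 for Veh replicates 1, 2 and 3; DESeq2 called 7 rises.

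**Figure D4:**
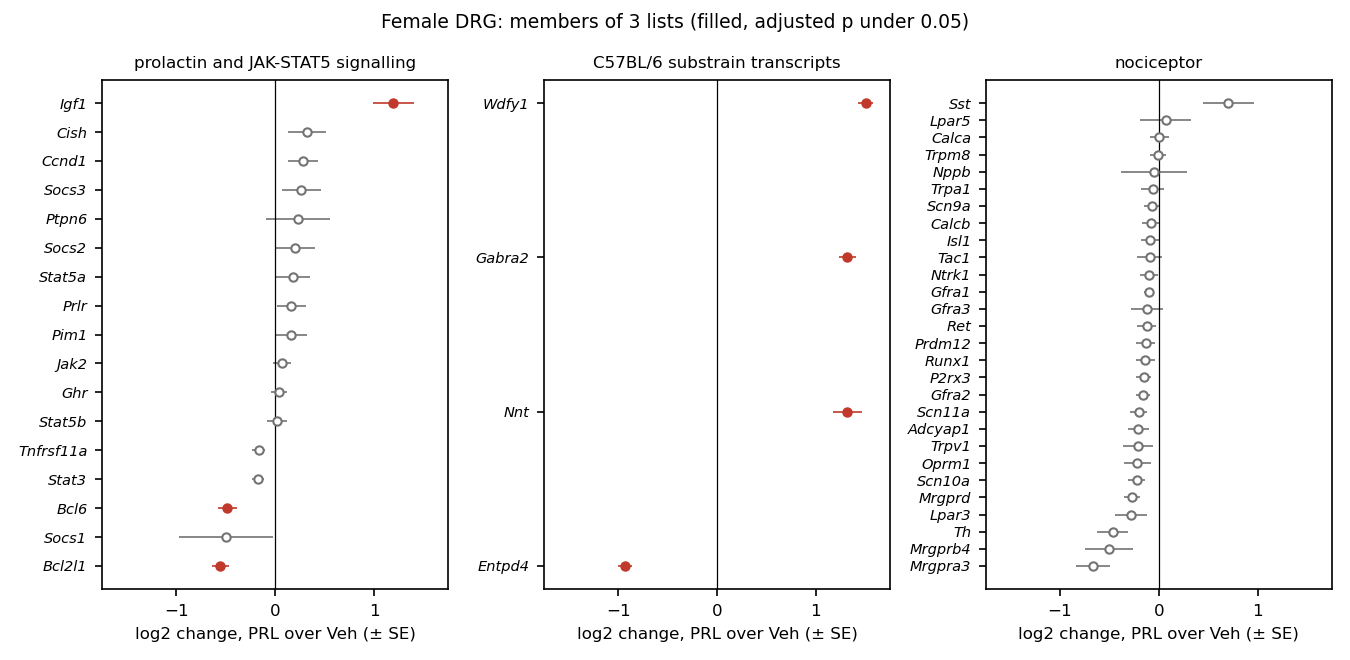
Log2 change with PRL over Veh (± SE, edgeR) of each tested member of the prolactin and JAK-STAT5, substrain transcript and nociceptor lists in female DRG; filled points have an adjusted p under 0.05. Filled are Igf1, Bcl6 and Bcl2l1 (1.20, -0.48 and -0.56), Wdfy1 (2.83-fold), Gabra2 and Nnt (both 1.32) and Entpd4 (-0.93), and no nociceptor gene, of which 25 of 28 lie below 0.

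No gene of the nociceptor list passed the test. Of its 28 members 25 were below 0, with a median log2 change of -0.13 against -0.0028 over all tested genes, and 7 had an unadjusted p under 0.05. Of all 14705 tested genes, 7456 were below 0 and 1766 had an unadjusted p under 0.05, the background for each such count here. The list ran from Mrgpra3, an itch receptor (4.56, 4.64 and 6.57 CPM with PRL, against 8.20, 8.61 and 8.19 CPM with Veh; log2 -0.67, adjusted p = 0.143), to Sst, the peptide somatostatin (log2 0.70, adjusted p = 0.30). The list took 0.436% to 0.494% of gene reads with PRL and 0.480% to 0.546% with Veh. These shares overlapped, and the Schwann and satellite glia list took 2.67% to 3.37% with PRL and 2.14% to 2.36% with Veh. No gene passed among 15 markers of myelinated sensory neurons, 12 tested nerve injury genes, 15 immediate early genes, 13 hormone receptors or 25 translation control genes, whose medians lay between -0.03 and 0.11. In these 5 lists, 2, 1, 5, 3 and 1 genes had an unadjusted p under 0.05, in that order, and DESeq2 called none of them or of the nociceptor list. In edgeR 1 nociceptor gene was lower without PRL replicate 3, and 1 immediate early gene was lower in a fit of only the groups compared. Of 11 tested GABA-A receptor subunits only Gabra2 passed, and of 18 clock genes only Per1, a call lost in 5 of 13 alternatives. An unadjusted p under 0.05 was found for 1 GABA-A receptor subunit and 6 clock genes. The groups did not overlap for 5 clock genes that were lower and 2 that were higher with PRL, against 7.72% and 7.8% of all tested genes. In males 3 clock genes were called higher with PRL and none lower. Among the tested macrophage (17), neutrophil (14), lymphocyte (7), mast cell (6), keratinocyte (9), adipocyte (11), erythrocyte (4) and cell cycle (14) genes none passed in edgeR or DESeq2, and 1, 1, 2, 1, 0, 2, 0 and 3 of them, in that order, had an unadjusted p under 0.05. Without Veh replicate 1, 1 macrophage gene was higher.

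The calls that were least dependent on the processing included transcripts that are known to differ between C57BL/6 substrains. All 4 genes of a list of such transcripts passed, 3 higher and 1 lower, against 0.653% of all tested genes. All 4 were also called in all 13 alternatives. This list was chosen with earlier results of these data known, so its count of calls gives no support of its own. Wdfy1, an endosomal adaptor, had 85.9, 88.3 and 87.5 CPM in PRL libraries, against 33.2, 29.4 and 29.8 CPM in Veh libraries (2.83-fold, SE 0.08 on the log2 scale, adjusted p = 1.66e-06). Gabra2, a GABA-A receptor subunit whose expression is lowered by an intronic deletion in C57BL/6J, had 57.6, 56.8 and 59.1 CPM with PRL, against 21.4, 23.7 and 24.5 CPM with Veh (log2 change 1.32 ± 0.08 SE, adjusted p = 7.1e-06). The libraries of a group lay within a few CPM of each other for both genes, with a wide gap between the groups. Nnt, a mitochondrial transhydrogenase gene that is partly deleted in C57BL/6J, had 64.1, 48.3 and 39.6 CPM with PRL, against 22.1, 19.1 and 19.9 CPM with Veh (log2 change 1.32 ± 0.15 SE, adjusted p = 0.00127). Entpd4, a nucleotide-hydrolysing enzyme of the Golgi, fell to 69.3, 60.0 and 70.1 CPM with PRL, against 124.1, 129.4 and 126.3 CPM with Veh (log2 change -0.93 ± 0.07 SE, adjusted p = 2.84e-05). The labels give C57BL/6J for both groups, and a genetic difference between the mice of the groups cannot be told apart from the treatment.

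Further genes outside that list were called, not all with groups as tight. Tmem181b-ps and Ide kept their calls in all 13 alternatives, LOC100642166 in 11 and Btaf1 in 9. Tmem181b-ps, a pseudogene related to Tmem181a (4.45 ± 0.528 CPM with PRL, against 5.10 ± 0.465 CPM with Veh), had 42.3, 48.1 and 46.5 CPM with PRL, against 15.4, 14.8 and 11.9 CPM with Veh (log2 change 1.70 ± 0.13 SE, adjusted p = 2.84e-05). Reads shared with near-identical copies make its level uncertain. LOC100642166 had 0 reads in all 3 PRL libraries, against 23, 35 and 23 reads in the Veh libraries, and was at least 24.9-fold lower with PRL, taking 3 counts over the PRL libraries together as the limit that a count of 0 allows (counting error only); in male DRG it had 0 reads with PRL and 60 with Veh. On chromosome 19, Ide, the insulin-degrading enzyme, fell to 110.5, 98.0 and 104.9 CPM with PRL, against 201.7, 193.6 and 156.6 CPM with Veh (log2 change -0.82 ± 0.08 SE, adjusted p = 0.000725), and Btaf1, a regulator of TATA-binding protein, fell by 0.58 on the log2 scale. Ide and Fgfbp3 are known to vary in copy number within C57BL/6J colonies. Fgfbp3 was at 1.69 ± 0.38 CPM with PRL, against 3.40 ± 0.942 CPM with Veh without passing (adjusted p = 0.125), and none of the 3 tested neighbours on either side of Ide passed: Cpeb3, March5 and 4931408D14Rik had log2 changes of -0.05, 0.02 and -0.69 on one side, and Kif11, Hhex and Exoc6 of 0.57, 0.80 and -0.01 on the other. The genes of this locus and LOC100642166 were named after their values were seen.

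The same comparison in male DRG, which shares no library with the female one, called 76 genes (0.517%). Both comparisons came from the same fit and share its estimate of each gene's spread, so their calls are not fully independent. All 43 female rises were above 0 in males and all 53 female falls were below 0, while 9570 of the 14705 tested genes had the same sign in both sexes, with median log2 changes of 0.67 in females and 0.62 in males for the rises and of -0.63 in females and -0.51 in males for the falls. Of the rises, 22 were also called in males, 51.2% of the female and 52.4% of the male calls, and of the falls 25 were, 47.2% of the female and 73.5% of the male calls. The test of the difference between the sexes called no gene (0%) in edgeR, with 537 genes at an unadjusted p under 0.05, of which 11 were among the 96. In DESeq2 1 passed, the clock gene Nr1d1 (difference of log2 changes, female minus male, -1.33, adjusted p = 1.45e-05), which in females ran from 27.5 to 36.0 CPM with PRL and from 40.6 to 50.4 CPM with Veh, and in males averaged 69.7 CPM with PRL, against 38.2 CPM with Veh. None of the female calls is therefore shown to be particular to females.

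By group, the glucocorticoid list had 16 falls in females and 9 in males, where its median log2 change was -0.59; Mt2, for example, had a log2 change of -1.30 in males and did not pass there (edgeR, adjusted p = 0.0842), and its difference between the sexes did not pass either (adjusted p = 0.993). The matrix list had 6 rises in males, with a median of 0.65. Pi15, a protease inhibitor gene, and Igf1 were called only in females, with male log2 changes of 0.21 and 0.67 and a difference between the sexes that did not pass (edgeR, adjusted p = 0.993 for each). Wdfy1, Gabra2, Nnt and Entpd4 passed in males too, with log2 changes of 1.43, 1.26, 1.07 and -0.84.

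**Figure D5:**
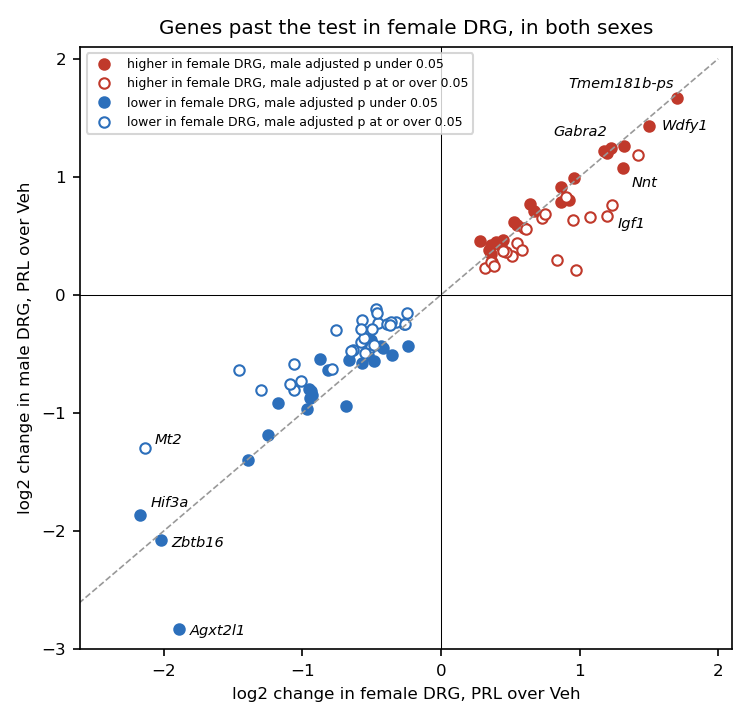
Log2 change with PRL over Veh in female DRG (horizontal) against male DRG (vertical) for 95 of the 96 genes past the test in females (LOC100642166, with no read in the PRL libraries, is left out); filled points also passed in males, and the dashed line marks equal change. All points lie in the lower left or upper right quadrant, from Hif3a at -2.17 in females to Tmem181b-ps at 1.70.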

How the data were processed

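Per the labels' protocols, 500 ng of total RNA per library was depleted of rRNA with a KAPA stranded RiboErase kit and sequenced as single 50 nt reads. Per the submitters' processing notes, the authors used bcl2fastq, TopHat2, HTSeq and mm9; versions and strand setting: not given in the sources used here. Values as deposited are raw counts of reads per gene. The 5 summary lines of each file (72.3% to 73.6% of listed reads in the female DRG libraries) were left out. Counts of 12 rRNA-depleted DRG libraries (4 groups of 3) were fitted in edgeR 4.0.16 (R 4.3.3) with filterByExpr, TMM and the quasi-likelihood F test, adjusted by Benjamini and Hochberg over 14705 genes. Fold change is PRL over Veh.

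The comparison, the gene lists and the rule for named genes were chosen with earlier results of these data known. The rule took Prlr, the 15 largest rises and falls past the threshold with mean log2 CPM of at least 1, no overlap and no predicted gene name, up to 4 genes per list, and all members of the prolactin and substrain lists; other genes named were chosen after their values were seen. Some genes that the rule names are not reported here. Simulated counts with known changes served to test the code. Of 22609 symbols, 20043 were current in RefSeq (GRCm38.p6, used for names, neighbours and promoter sequence only), 2327 were older names and 239 had no match. The series text gives 18 males and 12 females, while the labels list 18 female and 12 male libraries; Xist and Y-linked genes matched the labels of the female DRG libraries. The alternatives changed the test (DESeq2 1.42.0), the scaling (RLE), the filter (none, or 1 CPM in 3 libraries) or the libraries fitted (the groups compared only), and added the replicate number as a block or a muscle covariate. Each library was also left out in turn; leaving out male libraries was added after seeing the data.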

Additional observations from a re-analysis of the deposited data

Results flagged for a closer look

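Nr1d1, a repressor of the circadian clock, differed between the sexes in its response to PRL by DESeq2 (female minus male, -1.33 on the log2 scale, adjusted p = 1.45e-05). Its CPM was 35.4, 36.0 and 27.5 in female PRL libraries, against 45.9, 50.4 and 40.6 in female Veh libraries, and 54.3, 67.7 and 87.1 in male PRL libraries, against 36.1, 39.6 and 38.9 in male Veh libraries. All 3 PRL libraries lay under the Veh libraries in females and above them in males. In edgeR the difference was -1.34 and did not pass (adjusted p = 0.513), nor did the female change alone (log2 -0.47, adjusted p = 0.246).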

How the results depend on the processing

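The 96 female calls (43 higher, 53 lower) kept their direction in every alternative, but their number did not. RLE scaling gave 96, no filter 108 and the 1 CPM filter 96. DESeq2 called 208 (119 higher, 89 lower), a fit of only the groups compared 34 (9 higher, 25 lower) and a muscle covariate 36 (11 higher, 25 lower). Leaving out single libraries gave 20 to 171 calls, 6 to 113 higher and 14 to 61 lower: 38, 28 and 171 without PRL replicates 1, 2 and 3, 153, 20 and 46 without Veh replicates 1, 2 and 3, and 70 to 124 without single male libraries, which was chosen after seeing the data. The cause was not tested. Calls that held in all 13 alternatives of the female comparison numbered 15: A930001N09Rik, Arid5b, Arrdc2, Col24a1, Emid2, Entpd4, Gabra2, Ide, Mertk, Nnt, Phf15, Tmem181b-ps, Tsc22d3, Wdfy1 and Zbtb16.

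With the replicate number as a block, 48 genes were called (20 higher, 28 lower) in females and 38 in males. Same-numbered PRL and Veh libraries did not deviate together (r = -0.117, 0.000493 and -0.144 for numbers 1 to 3), so the numbers were not taken as pairs. The 76 male calls became 305 with DESeq2, 42 with the muscle covariate and 25 to 73 without single male libraries. For the difference between the sexes, DESeq2 called 1 gene and edgeR none in any alternative run. Named genes that passed in neither fit changed sign in 9 of the values under alternatives. At 3 libraries a group, small changes in genes of low count are not detectable.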

Other observations

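The genes described here lie outside the lists and were chosen after their values were seen. Arid5b, a DNA-binding chromatin regulator, fell to 45.9, 44.0 and 48.5 CPM in PRL libraries, against 90.1, 88.0 and 87.4 CPM in Veh libraries (log2 change -0.94 ± 0.09 SE, adjusted p = 0.000603 in edgeR), with no overlap. The DNA methyltransferase gene Dnmt3a and the 5-methylcytosine dioxygenase gene Tet1 rose by 0.37 and 0.45 on the log2 scale, at 102.1 ± 7.48 and 46.2 ± 5.12 CPM with PRL and 79.3 ± 3.03 and 33.9 ± 0.63 CPM with Veh (SD, n = 3 each). Efr3b, the next tested gene to Dnmt3a on chromosome 12, fell by 0.36. Mertk, a receptor kinase that clears dying cells, had 36.2, 38.7 and 34.2 CPM with PRL, against 66.2, 71.4 and 73.9 CPM with Veh (log2 change -0.95 ± 0.11 SE, adjusted p = 0.00176).

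The amino acid transporter gene Slc7a5 fell by 0.33 and the alanine aminotransferase gene Gpt2 by 0.43, while Irs1, an adaptor of the insulin receptor, rose by 0.60 and the fatty acid elongase gene Elovl6 by 0.44. Agxt2l1 (Etnppl), which breaks down phosphoethanolamine, was at 4.03, 2.14 and 7.20 CPM with PRL, against 13.9, 16.9 and 18.0 CPM with Veh (log2 change -1.89 ± 0.29 SE, adjusted p = 0.0100), and its call was lost without PRL replicate 1, without Veh replicate 2 and in a fit of only the groups compared (adjusted p = 0.089 in that fit). Slc9a3, a sodium-proton exchanger gene, was at 3.94 ± 1.13 CPM with PRL, against 10.9 ± 1.87 CPM with Veh. Fst, an activin antagonist, was at 8.81 ± 0.825 CPM with PRL, against 4.17 ± 0.248 CPM with Veh, and Ppic, a cyclophilin, at 17.6 ± 2.53 CPM with PRL, against 9.10 ± 2.78 CPM with Veh.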
